A study of Mus musculus with 12 samples.

Results

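The genes described here lie around *Apoe* on mouse chromosome 7 and were measured in cells sorted as bone marrow endothelial cells. They were chosen by position and by level: a start on chromosome 7 (build GRCm38) from 10.7 Mb before to 4.80 Mb after *Apoe*, and at least 120 counts summed over 12 libraries. Among genes that met these limits, *Apoe* and its immediate cluster (8 genes in all) and 1 ribosomal protein gene were left out. Of 55421 genes in the table, 749 started in this window, 445 of them without a single count and 199 with fewer than 120 counts, and 96 genes remained. All 96 passed the filter on low counts and were tested. They comprised 89 protein-coding genes, 2 lincRNAs, 2 antisense genes, 2 transcribed processed pseudogenes and 1 gene of unconfirmed type, with 51 on the plus and 45 on the minus strand. Toward the centromere from *Apoe* lay 79 of the genes, and 17 lay toward the telomere.

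Each of the 4 groups held 3 mice aged 20 weeks, with 1 library per mouse. Naive controls, mice with hypertension under chronic angiotensin II from an implanted pump, and mice 2 days after myocardial infarction (MI) by permanent coronary ligation were C57BL/6J. The fourth group was labelled *Apoe*(tm1Unc), *Apoe*-/- mice that became atherosclerotic on a western diet, and the same controls served all comparisons. Total counts ranged from 17007088 to 25136936, and values below are CPM, counts scaled to library size after TMM normalization, given for mice 2, 3 and 4 of a group in that order. The targeted gene, *Apoe* at chr7:19696109-19699188, ranged from 717 to 894 CPM in controls, from 450.5 to 905 in hypertension, from 550.4 to 1503 after MI and from 7.28 to 14.8 in *Apoe*-/- mice. Its log2 fold change against controls was -6.20 (SE 0.45, adjusted p 6.08e-05 in edgeR's quasi-likelihood test, which gave every adjusted p below, over 15999 genes). Marker sums, here and below, are the exception and are CPM without the TMM step. Summed over 16 endothelial marker genes, the libraries held 151 to 311 CPM. The sums were 34285 to 91742 CPM over 10 neutrophil markers and 10312 to 42854 CPM over 10 erythroid markers. None of these markers was at 0 in any library.

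The *Apoe* allele of these mice was made by gene targeting in embryonic stem cells of one inbred strain, and the mice were then bred to another, C57BL/6J. In such breeding, DNA linked to the targeted gene tends to stay with it, and genes near the target can carry alleles of the donor strain that differ in expression or in sequence. The window is also rich in zinc finger genes, which code for DNA-binding proteins, many of them repressors of transcription, and in genes of broad housekeeping function. Whether the *Apoe*-/- mice of this series carried donor DNA was not measured, and the knockout, the western diet and linked donor DNA cannot be told apart in these libraries.

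In *Apoe*-/- mice against controls, 1 of the 96 genes passed an adjusted p of 0.05, *Ube2m*, which fell (1.04% of the genes, against 0.144% of all genes tested, or 0.0375% for a fall). Against the mean of the 3 other groups, 6 passed (6.25%, against 0.7% of all genes tested): *Ube2m*, *Sae1*, *Gm16174* and *Zfp114* fell (0.106% of all genes fell), and *Bbc3* and *Dmpk* rose (0.594% rose). With no adjustment, 28 genes had a p under 0.05 in that second comparison (29.2%, against 9.76%). Against controls, 24 of the 96 genes had an unadjusted p under 0.05 (25%, against 5.97% of all genes), 11 higher (3.97% of all genes) and 13 lower (2% of all genes) in *Apoe*-/- mice. The choice of genes asked for 120 counts over the 12 libraries. At the rate of the other 9 libraries, *Mill2* would have missed this limit without its *Apoe*-/- libraries and *Zfp114* without its controls, each the group where it was highest, and *Gm10676* without its hypertensive libraries. Without these 3 genes, 22 of 93 had an unadjusted p under 0.05 against controls and 26 of 93 against the mean of the other groups. Against that mean, 5 of the 93 passed an adjusted p of 0.05. The size of the difference, taken as the absolute log2 fold change from controls, had a median of 0.32 over the 96 genes and 0.19 over all genes tested. With 53 genes higher and 43 lower, the signed median was only 0.04, so the shifts went both ways. In bulk libraries, fewer cells of a type and less RNA per cell cannot be told apart.

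The same 96 genes were read in the other disease groups. In hypertension, 0 of the 96 genes passed an adjusted p of 0.05 against controls by edgeR, DESeq2 or the likelihood-ratio test (0% of all genes tested by edgeR), and 1 had an unadjusted p under 0.05 (1.04%, against 3.71%). After MI the counts were again 0 by each tool (0% of all genes by edgeR) and 1 (1.04%, against 2.8%). That single gene was *Rtn2* in both cases, a reticulon gene of the endoplasmic reticulum chosen here after its values were seen, at 0.448, 0.217 and 0.427 CPM in controls, 0.863, 0.876 and 0.951 in hypertension and 0.442, 0.741 and 1.04 after MI. The median absolute log2 fold change over the 96 genes was 0.20 in hypertension and 0.19 after MI, beside 0.19 and 0.16 over all genes tested. Whether the *Apoe*-/- effect differed from that of another disease group was tested gene by gene, where the shared controls drop out, and *Ube2m* differed from both, by -1.17 (SE 0.16, adjusted p 0.0118) on the log2 scale from hypertension and by -1.14 (SE 0.16, adjusted p 0.0124) from MI. These were the 1 call among the 96 genes against hypertension (0.0625% of all genes were called) and, together with *Gm16174*, the 2 calls against MI (0.269%). At an unadjusted p under 0.05, 24 genes differed from hypertension (25%, against 5.94%) and 22 from MI (22.9%, against 12.7%).

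**Figure D1:**
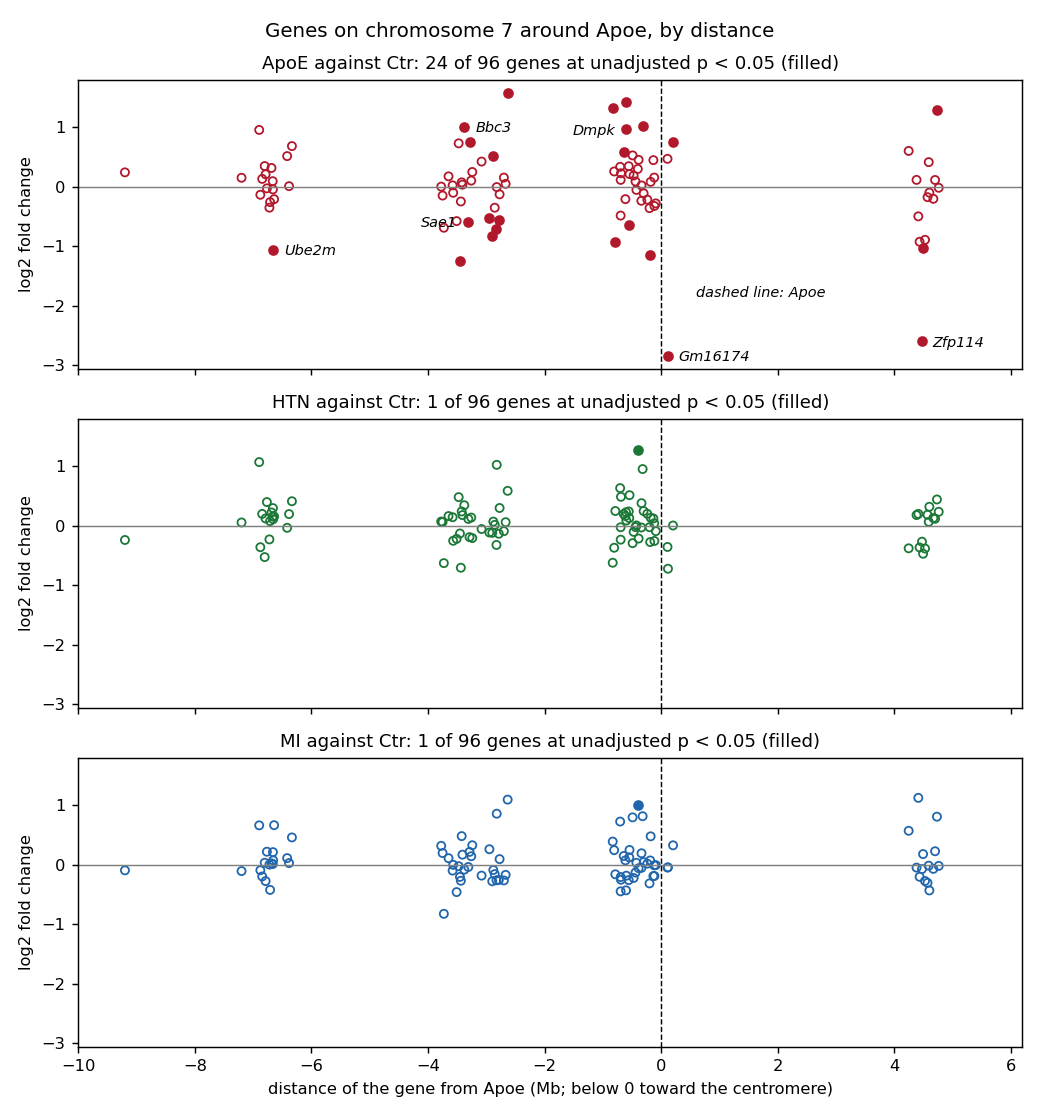
Log2 fold change of each of the 96 genes against controls (y axis) by distance of the gene from *Apoe* in Mb (x axis, negative toward the centromere), for *Apoe*-/- mice (ApoE), hypertension (HTN) and MI, with genes at an unadjusted p under 0.05 filled. In *Apoe*-/- mice 24 genes are filled, above and below 0 and on both sides of *Apoe*, and in each of the other panels 1 is.

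Distance was read in steps, since the genes sit in 4 blocks with gaps between them and none lies 1 to 2.5 Mb from *Apoe* on either side. Among the 18 genes more than 5 Mb toward the centromere, 1 had an unadjusted p under 0.05 against controls in *Apoe*-/- mice (5.56%), and this was *Ube2m*. From 2.5 to 5 Mb toward the centromere the count was 10 of 29 (34.5%), and within 1 Mb it was 8 of 32 (25%). Toward the telomere, 2 of 3 genes within 1 Mb and 3 of 14 between 2.5 and 5 Mb (21.4%) reached it. The genes counted include *Mill2*, within 1 Mb toward the centromere, and *Zfp114*, between 2.5 and 5 Mb toward the telomere. Both met the count limit only through the group where they were highest, so their part in these shares is a description. The block farthest toward the centromere had a share near the background and the others lay above it.

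The absolute log2 fold changes were read by the same steps, with *Mill2*, *Zfp114* and *Gm10676* again included. Their medians were 0.23 in the block over 5 Mb toward the centromere, 0.35 from 2.5 to 5 Mb, 0.31 within 1 Mb, 0.75 for the 3 genes within 1 Mb toward the telomere and 0.46 for the 14 beyond. Outside the window on chromosome 7, the median was 0.17 over 72 genes nearer the centromere, 0.24 over 202 genes in the next 15.5 Mb toward the telomere and 0.20 over 816 genes beyond, and it was 0.19 over 14787 genes of other chromosomes. The shares at an unadjusted p under 0.05 there were 4.17%, 12.4%, 4.90% and 5.80%. The raised share thus continued past the upper edge of the window and not past the lower edge. Blocks of neighbouring genes are not independent replicates, and no test of the trend with distance was made.

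**Figure D2:**
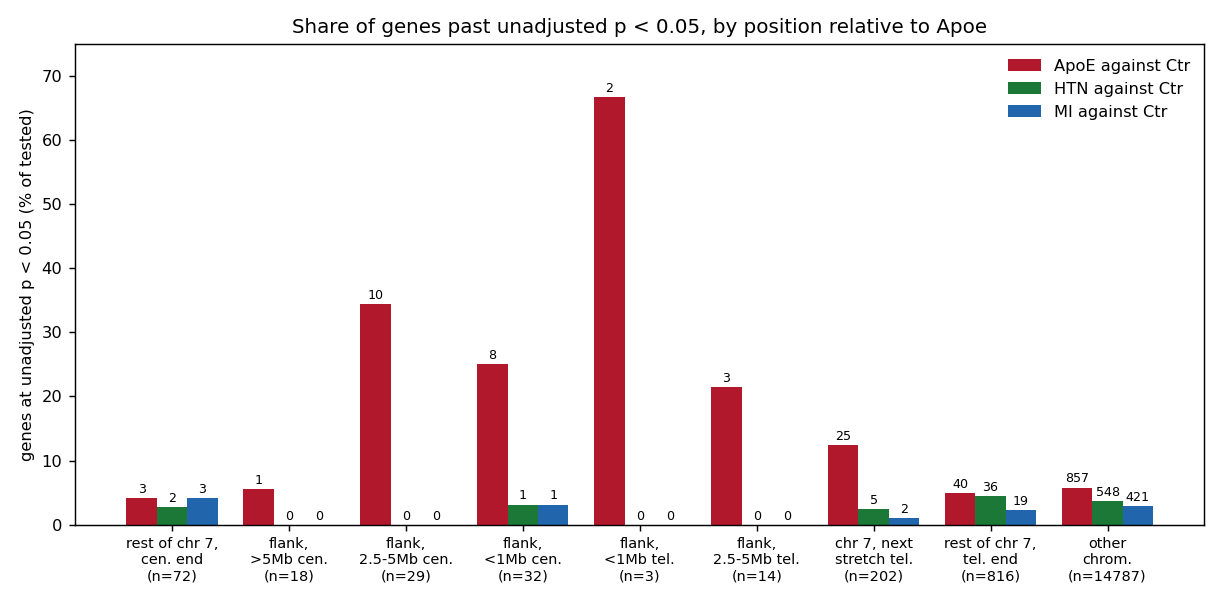
Percent of tested genes with an unadjusted p under 0.05 against controls (y axis) for the blocks of the 96 genes (flank) by distance from *Apoe* toward the centromere (cen.) or telomere (tel.), for the rest of chromosome 7 and for other chromosomes (x axis, n genes tested), in *Apoe*-/- mice (red), hypertension (green) and MI (blue), with the number of genes over each bar. The red bars are at 12.4% or more from 5 Mb toward the centromere to the stretch just past the window toward the telomere, and above the others there. Elsewhere they are at 4.17% to 5.80%, where they are also level with or above the others.

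The difference was not confined to genes with few reads. At a mean under 1 CPM, 6 of 14 genes had an unadjusted p under 0.05 (42.9%), or 4 of 11 without *Mill2*, *Zfp114* and *Gm10676*, beside 6.11% of genes of the same level on other chromosomes. From 1 to 10 CPM it was 8 of 34 (23.5%, beside 6.90%), from 10 to 100 CPM 6 of 34 (17.6%, beside 5.44%), and at 100 CPM or more 4 of 14 (28.6%, beside 4.23%). The share was above that of other chromosomes at each of the 4 levels.

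A plainer view is whether the 3 *Apoe*-/- libraries lay above or below all 9 other libraries. This held for 12 of the 96 genes (12.5%, against 2.25% of all genes tested), 5 above (1.48% of all genes) and 7 below (0.775%), or 4 above and 6 below without *Mill2*, *Zfp114* and *Gm10676*. Below were *Ube2m*, *Sae1*, *Ap2s1*, *Bloc1s3*, *Gm16174*, *Zfp114* and *Zfp111*, and above were, among others, *Mill2*, *Dmpk*, *Six5* and *Pvr*. By the same measure, 0 genes stood apart in controls (0.263% of all genes), 2 in hypertension (1.26%) and 1 after MI (1.79%). Against the controls alone, the 3 libraries of a group lay wholly above or below in 23 of the 96 genes in *Apoe*-/- mice (24%, against 9.51%), in 15 in hypertension (15.6%, against 16.8%) and in 8 after MI (8.33%, against 8.86%).

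**Figure D3:**
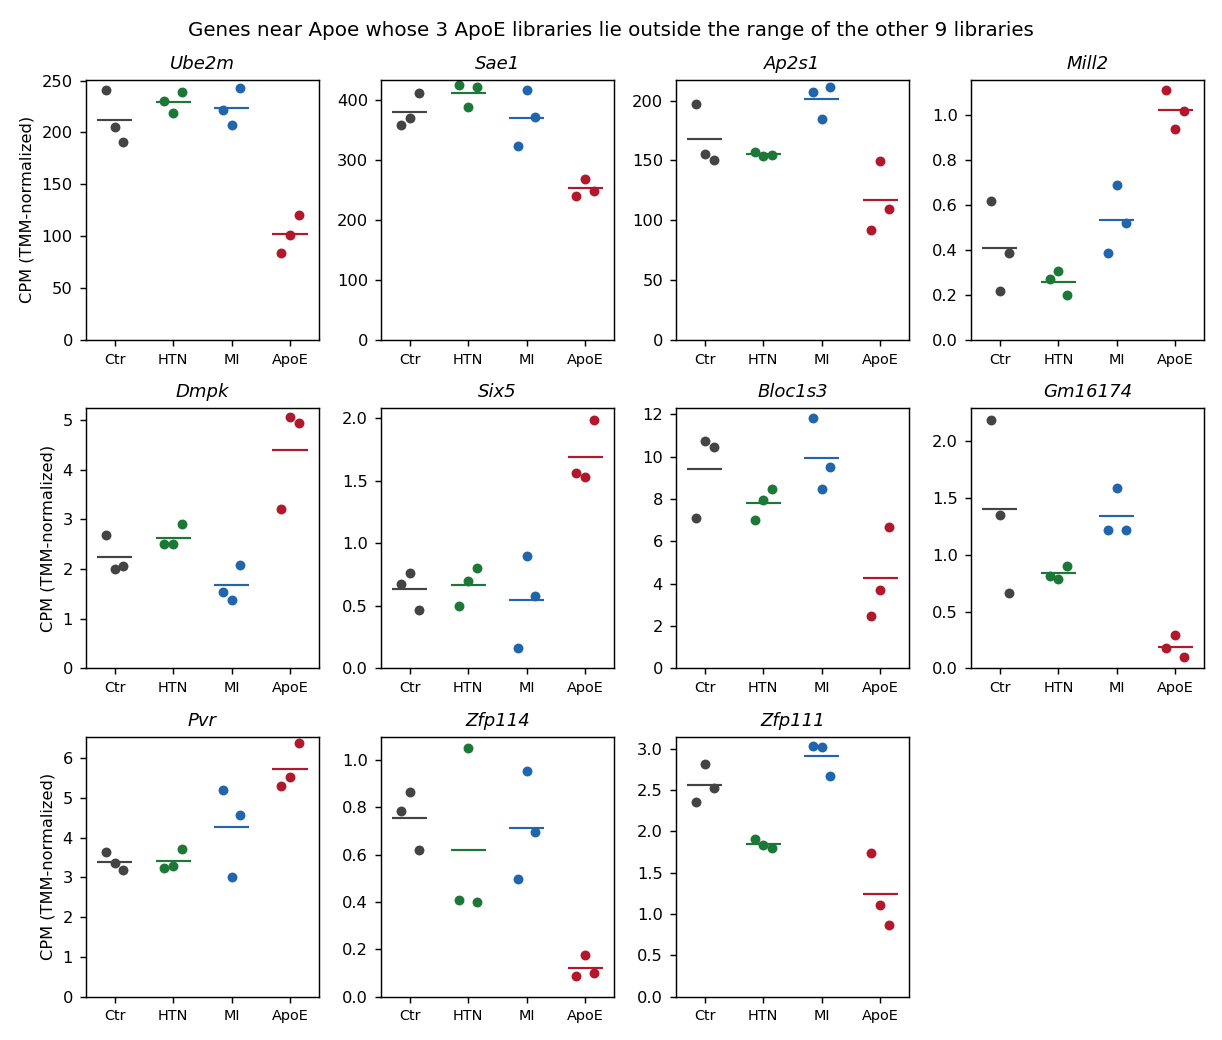
CPM of each library (y axis, from 0; points are mice and the line is the group mean, n = 3 mice) by group (x axis) for 11 of the genes whose 3 *Apoe*-/- libraries lay outside the range of the other 9. *Ube2m*, *Sae1*, *Ap2s1*, *Bloc1s3*, *Gm16174*, *Zfp114* and *Zfp111* lie below the other groups and *Mill2*, *Dmpk*, *Six5* and *Pvr* above them.

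*Ube2m* codes for the enzyme that passes NEDD8, a small ubiquitin-like tag, onto cullin proteins. The gene lies 6.66 Mb from *Apoe* toward the centromere, at chr7:13035120-13038275 on the minus strand. Its level was 241, 206 and 191 CPM in controls, 231, 219 and 239 in hypertension, 221, 207 and 243 after MI and 83.7, 102 and 120.3 in *Apoe*-/- mice. The highest *Apoe*-/- library lay well under the lowest of the other 9. Against controls *Ube2m* fell by 1.06 on the log2 scale (SE 0.16, adjusted p 0.0240), to a fold of 0.480, and against the mean of the other groups by 1.12 (SE 0.14, adjusted p 0.00311). By p against controls it ranked 11 of the 15999 genes tested. A fit of these 6 libraries alone gave an adjusted p of 0.288, and leaving out a single mouse gave 0.144 without control 2, 0.150 without control 3, 0.0659 without control 4 and 0.0800 without *Apoe*-/- mouse 3. The log2 fold change was -1.12 to -0.96 in these 5 fits and -1.20 to -0.93 over all 13 alternative settings. A near-identical transcript of a pseudogene, *Gm6227* on chromosome 6, held 13 counts in all libraries together.

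The stretch just upstream of *Ube2m* is shown because this gene had the smallest p of the 96, and that of *Bbc3* because it was called in the opposite direction. Both are 250 bases before an annotated start (RefSeq, GRCm38.p6), printed 5′ to 3′ on the strand of the gene, and neither overlaps an annotated exon. Capitals mark matches, on either strand, to the GC box GGGCGG, found in 32.7% of 32851 promoters of this length, to the CAAT box, searched as CCAAT and found in 33.8%, to the TATA box, searched as TATAAA and found in 12.4%, or to the ETS motif, searched as CCGGAA and found in 12.03%.
Ube2m, chr7:13038276-13038525, minus strand: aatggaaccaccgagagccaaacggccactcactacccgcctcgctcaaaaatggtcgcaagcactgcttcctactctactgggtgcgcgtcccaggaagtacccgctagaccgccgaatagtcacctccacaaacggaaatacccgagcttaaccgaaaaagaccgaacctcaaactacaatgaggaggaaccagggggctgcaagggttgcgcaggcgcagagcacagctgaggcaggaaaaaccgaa
Bbc3, chr7:16309333-16309582, plus strand: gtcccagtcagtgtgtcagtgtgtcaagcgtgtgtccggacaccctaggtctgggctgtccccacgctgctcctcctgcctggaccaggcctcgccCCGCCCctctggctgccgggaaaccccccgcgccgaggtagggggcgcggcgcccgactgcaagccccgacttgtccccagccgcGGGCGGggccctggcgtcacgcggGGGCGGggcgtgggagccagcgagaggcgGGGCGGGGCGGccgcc
The *Ube2m* stretch held none of the 4 motifs, and the *Bbc3* stretch held 5 matches to the GC box, 1 of them on the opposite strand and the last pair sharing a base. Both genes have other annotated starts, so these counts depend on the start shown. Stretches before the other starts held 0 or 1 GC box matches for *Ube2m* and 1 or 7 for *Bbc3*. The printed bases are reference letters of C57BL/6J and say nothing about the sequence in the *Apoe*-/- mice.

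*Sae1*, which codes for a subunit of the enzyme that activates SUMO, another small protein tag, lies 3.31 Mb toward the centromere. It was measured at 359, 370.3 and 411 CPM in controls, 425, 389 and 422 in hypertension, 323, 417 and 372 after MI and 239.9, 269 and 249 in *Apoe*-/- mice. The *Apoe*-/- libraries were close to each other and overlapped no other library. Against the mean of the other groups the log2 fold change was -0.62 (SE 0.12, adjusted p 0.0379), and against controls alone it was -0.59 (SE 0.14, adjusted p 0.285). *Fbxo46*, an F-box gene named after its values were seen, was the third gene of the list of ubiquitin-like tags. Against controls it had 0.35 (SE 0.23, adjusted p 0.873). By the quasi-likelihood test the list thus held 1 call of 3 genes against controls (median log2 fold change -0.59). Against the mean of the other groups it held 2 of 3. DESeq2 called both *Sae1* and *Ube2m* against controls, and the likelihood-ratio test called *Ube2m* alone there.

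Just past *Sae1*, at 3.38 Mb, lies *Bbc3*, which codes for PUMA, a protein that p53 induces and that promotes cell death. Its level was 12.8, 17.2 and 17.6 CPM in controls, 17.5, 17.9 and 25.2 in hypertension, 16.9, 16.8 and 11.4 after MI and 23.97, 33.7 and 38.5 in *Apoe*-/- mice. *Apoe*-/- mouse 2 lay below hypertensive mouse 4, and otherwise the *Apoe*-/- libraries were the highest. On the log2 scale *Bbc3* rose against the mean of the other groups by 0.92 (SE 0.18, adjusted p 0.0338), and against controls the value was 1.01 (SE 0.23, adjusted p 0.190). *Sae1* and *Bbc3* are neighbours on opposite strands that moved in opposite directions.

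*Gm16174* is an antisense gene that lies within *Bcl3*, 0.117 Mb from *Apoe* toward the telomere, at chr7:19816553-19818625 on the plus strand. Reads were few, with 39, 25 and 17 counts in controls, 18, 18 and 18 in hypertension, 22, 30 and 21 after MI and 4, 5 and 2 in *Apoe*-/- mice. Every *Apoe*-/- library was below every other. Pooled within groups, the rate in *Apoe*-/- mice was 0.143 times that of controls (95% interval 0.0685 to 0.269, counting error only). The fitted log2 fold change was -2.84 (SE 0.51, adjusted p 0.0538) against controls, -2.58 (SE 0.46, adjusted p 0.0235) against the mean of the other groups and -2.80 (SE 0.51, adjusted p 0.0410) against MI. *Bcl3*, a regulator of NF-κB on the other strand, had 23.9, 23.4 and 15.5 CPM in controls and 16.1, 27.1 and 43.8 in *Apoe*-/- mice, with a log2 fold change of 0.47 (SE 0.33, adjusted p 0.889). The library kit keeps strand, but which strand setting was used in counting is not given in the sources used here, so how reads of this pair were divided is uncertain. The same holds for *Trim28* with *Zbtb45*, *Lig1* with *Zswim9*, *Ercc1* with *Cd3eap*, *Gemin7* with *Zfp296* and *Qpctl* with *Fbxo46*, which also overlap on opposite strands.

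*Zfp114*, a zinc finger gene 4.48 Mb toward the telomere, showed the other large fold. It had 14, 16 and 16 counts in controls, 9, 24 and 8 in hypertension, 9, 18 and 12 after MI and 2, 3 and 2 in *Apoe*-/- mice. With at most 3 counts in an *Apoe*-/- library, the pooled rate was 0.160 times that of controls (95% interval 0.0608 to 0.356, counting error only). *Zfp114* fell against the mean of the other groups by 2.48 (SE 0.50, adjusted p 0.0426) on the log2 scale, and its value against controls was -2.59 (SE 0.56, adjusted p 0.167). At 133 counts in all it was also among the 3 genes nearest to the count limit of the choice, beside *Gm10676* with 127 and *Mill2* with 132. Each of these 3 needed the libraries of 1 group to reach the limit, and *Zfp114* needed its controls, where it was highest. Its difference, in comparisons that include that group, is therefore given as a description. *Ceacam16* with 118, *Ppm1n* with 117 and *Zfp551* with 111 fell just short.

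*Dmpk*, the kinase gene of myotonic dystrophy, lies 0.602 Mb toward the centromere and *Six5*, a homeobox gene, directly after it on the same strand. *Dmpk* was at 2.69, 2.00 and 2.06 CPM in controls, 2.497, 2.496 and 2.90 in hypertension, 1.55, 1.38 and 2.09 after MI and 3.20, 5.05 and 4.94 in *Apoe*-/- mice. *Six5* was at 0.673, 0.758 and 0.465 CPM in controls, 0.499, 0.701 and 0.801 in hypertension, 0.166, 0.900 and 0.579 after MI and 1.56, 1.53 and 1.99 in *Apoe*-/- mice. Both genes were highest in the 3 *Apoe*-/- libraries, and the spread of the other 9 did not reach them. On the log2 scale *Dmpk* rose against the mean of the other groups by 1.03 (SE 0.21, adjusted p 0.0447), with 0.97 (SE 0.27, adjusted p 0.410) against controls. For *Six5* the values were 1.46 (SE 0.34, adjusted p 0.0926) and 1.43 (SE 0.45, adjusted p 0.561), neither past the threshold.

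The 6 calls against the mean of the other groups rested on all 12 libraries to different degrees. With 1 mouse left out at a time, *Ube2m* was called in 12 of 12 fits, *Gm16174* in 9, *Bbc3* in 4, *Zfp114* in 2, and *Sae1* and *Dmpk* in 1 each. The number of calls was 1 without hypertensive mouse 3. It was 2 without each control and without MI mouse 4, 3 without each of hypertensive mice 2 and 4, MI mouse 3 and *Apoe*-/- mice 3 and 4, and 6 without *Apoe*-/- mouse 2 or MI mouse 2. Those were not the same 6 genes, since without *Apoe*-/- mouse 2 they were *Ube2m*, *Bbc3* and *Dmpk* with *Ccdc61*, *Qpctl* and *Zfp111*, and without MI mouse 2 they were *Ube2m*, *Sae1*, *Bbc3*, *Gm16174* and *Zfp114* with *Ccdc61*. None of *Sae1*, *Bbc3*, *Dmpk* and *Gm16174* had a near-identical transcript elsewhere, and that of *Zfp114*, *Gm15442*, held 2 counts.

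Zinc finger genes were the largest list in the window, with 20 tested. In *Apoe*-/- mice 8 were higher and 12 lower than in controls, and their median log2 fold change was -0.15 (0.01 over all genes tested). By edgeR's quasi-likelihood test and by DESeq2, 0 passed an adjusted p of 0.05 against controls, by the likelihood-ratio test 1 did (*Zfp114*), and 2 had an unadjusted p under 0.05. The 11 on the centromeric side had a median of 0.13 with 0 genes at that level, and the 9 on the telomeric side had -0.50 with 2, *Zfp114* and *Zfp111*, which lie 10.8 kb apart. The split by side was chosen after the values were seen. *Zfp114* met the count limit only through its controls, where it was highest. Its likelihood-ratio call and its part in the telomeric values are therefore given as a description. No other gene of this list was called against controls by any of the 3 tests. *Zfp111* was at 2.35, 2.82 and 2.52 CPM in controls, 1.91, 1.84 and 1.80 in hypertension, 3.04, 3.02 and 2.66 after MI and 1.73, 1.12 and 0.866 in *Apoe*-/- mice, with a log2 fold change of -1.04 (SE 0.28, adjusted p 0.387) against controls. Its *Apoe*-/- libraries were the lowest of all, just under the 3 hypertensive ones. DESeq2 and the likelihood-ratio test called *Zfp111* against the mean of the other groups. Nearby *Zfp235* and *Zfp109*, named after their values were seen, had -0.92 (SE 0.48, adjusted p 0.860) and -0.89 (SE 0.45, adjusted p 0.860). Transcripts of *Zfp235* share a stretch of 204 bases with *Zfp93* at 91.2% identity and one of 995 bases with *Zfp108* at 90.05%, so how reads of these genes were divided is uncertain. The most abundant zinc finger gene, *Zfp110*, was at 33.2, 43.0 and 42.8 CPM in controls and 58.0, 29.4 and 43.0 in *Apoe*-/- mice, overlapping, and its near-identical relative *Zfp369* held 1350 counts.

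**Figure D4:**
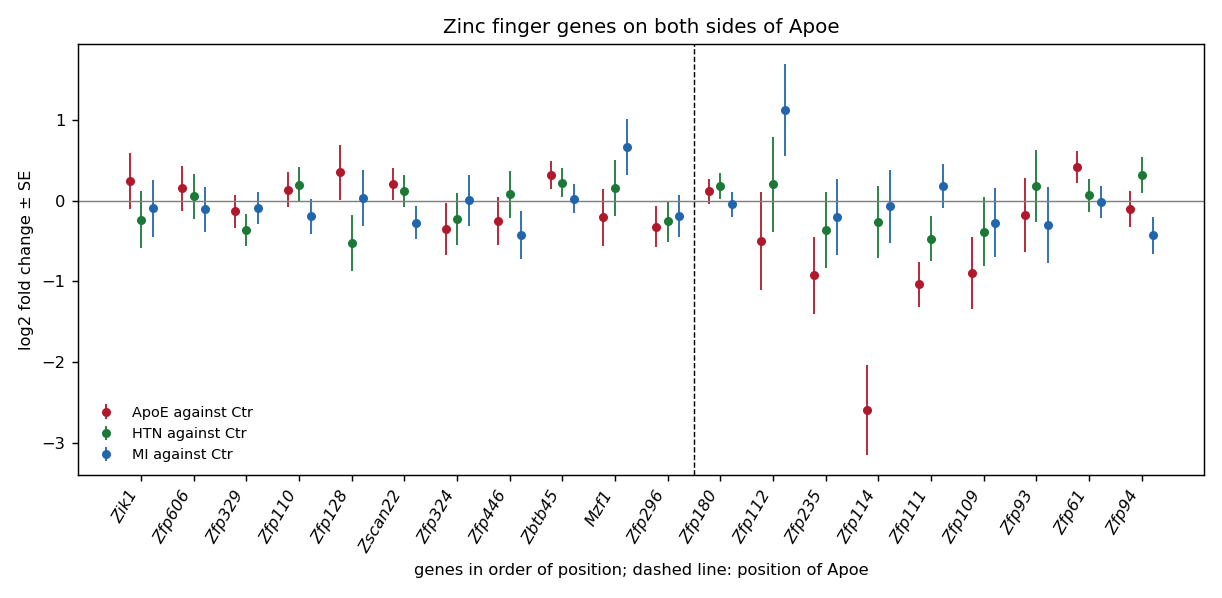
Log2 fold change against controls (y axis; points are estimates and bars ± SE) of the 20 zinc finger genes in order of position (x axis; dashed line, *Apoe*) for *Apoe*-/- mice (red), hypertension (green) and MI (blue). Left of the line the red points lie between -0.35 and 0.35. Right of it *Zfp114* lies at -2.59, *Zfp235*, *Zfp111* and *Zfp109* lie between -1.04 and -0.89, and the rest lie between -0.50 and 0.42.

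Against controls, genes of vesicle traffic gave 0 calls by any of the 3 tests among 11 tested (4 higher, 7 lower, median log2 fold change -0.05), with 2 at an unadjusted p under 0.05. The latter were *Bloc1s3*, a subunit of a complex that builds lysosome-related organelles, and *Ap2s1*, the small subunit of the clathrin adaptor AP2. *Bloc1s3* was at 7.12, 10.7 and 10.4 CPM in controls, 6.99, 7.97 and 8.46 in hypertension, 11.8, 8.47 and 9.50 after MI and 2.49, 3.70 and 6.67 in *Apoe*-/- mice, a log2 fold change of -1.14 (SE 0.31, adjusted p 0.387) against controls. *Ap2s1* was at 197, 156 and 150.3 CPM in controls, 157, 154 and 154 in hypertension, 207, 185 and 211 after MI and 91.7, 149.5 and 109.6 in *Apoe*-/- mice, a log2 fold change of -0.52 (SE 0.18, adjusted p 0.665). DESeq2 called both against the mean of the other groups, and the likelihood-ratio test called *Bloc1s3* there. In both genes 1 *Apoe*-/- library came within a few percent of the lowest of the others. *Napa*, which codes for the SNARE-recycling protein alpha-SNAP, overlapped between groups at 344, 337 and 382 CPM in controls and 293, 404 and 383 in *Apoe*-/- mice.

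The list of blood cell surface and immune genes held 9 tested genes, and it also took in *Bbc3*, a cell death gene. Against controls, 0 were called by edgeR's quasi-likelihood test, 1 by its likelihood-ratio test (*Bbc3*) and 2 by DESeq2 (*Bbc3* and *C5ar2*). Without *Bbc3*, the only call by these tests was thus *C5ar2* by DESeq2. An unadjusted p under 0.05 was reached by 5 genes, and 4 of the 9 were higher and 5 lower (median -0.02 on the log2 scale). Against the mean of the other groups *Bbc3* was called, as given above. Apart from *Bbc3*, the smallest p was that of *C5ar2*, a second receptor for the complement fragment C5a, at 5.38, 7.36 and 6.40 CPM in controls, 3.50, 6.96 and 7.06 in hypertension, 5.85, 4.82 and 5.97 after MI and 2.36, 1.76 and 3.92 in *Apoe*-/- mice. All its *Apoe*-/- libraries were below the controls and mouse 4 was above the lowest hypertensive library. The log2 fold change of *C5ar2* was -1.25 (SE 0.33, adjusted p 0.344) against controls. DESeq2 and the likelihood-ratio test also called *C5ar2* against the mean of the other groups. *Pvr*, the adhesion molecule CD155, was at 3.64, 3.36 and 3.18 CPM in controls, 3.22, 3.28 and 3.71 in hypertension, 5.19, 3.02 and 4.58 after MI and 5.29, 5.52 and 6.37 in *Apoe*-/- mice, with 0.75 (SE 0.24, adjusted p 0.556). *Irgc1*, of the immunity-related GTPase family, had 1.29 (SE 0.43, adjusted p 0.621). *Ptgir*, the prostacyclin receptor gene and named after its values were seen, had -0.55 (SE 0.22, adjusted p 0.787).

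The most abundant gene of the 96, also per kb of exon, was *Plaur*, the urokinase receptor gene, with a mean of 1409 CPM. It was at 1229, 1679 and 1162 CPM in controls and 1811, 1223 and 991 in *Apoe*-/- mice, overlapping, with a log2 fold change of -0.02 (SE 0.30, adjusted p 0.997). *Pglyrp1*, a peptidoglycan-binding protein of neutrophil granules, followed at 579, 588 and 501 CPM in controls and 430.1, 893 and 673 in *Apoe*-/- mice. Macrophage markers summed over 6 genes were 535 to 640.4 CPM in controls and 799.8 to 939.7 in *Apoe*-/- mice, and neutrophil markers 59386 to 79118 and 34285 to 69172; their part in these values was not tested.

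Among 6 genes of metabolism and transport (4 higher and 2 lower, median log2 fold change 0.05), 0 were called against controls by any of the 3 tests and 3 had an unadjusted p under 0.05. *Slc1a5*, the glutamine and neutral amino acid transporter, was at 481, 408 and 539 CPM in controls, 512, 439 and 364 in hypertension, 393, 451 and 334 after MI and 169, 273 and 359 in *Apoe*-/- mice, with -0.83 (SE 0.25, adjusted p 0.467). All 3 *Apoe*-/- libraries lay under the controls, while mouse 4 reached the range of MI. *Qpctl*, a Golgi enzyme that cyclizes N-terminal glutamine, had -0.64 (SE 0.20, adjusted p 0.564). It overlaps *Fbxo46* on the other strand, so how reads of this pair were divided is uncertain. DESeq2 and the likelihood-ratio test called *Qpctl* against the mean of the other groups.

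In the kinase and signalling list, 9 genes were tested (5 higher, 4 lower, median log2 fold change 0.05), 0 were called against controls by any of the 3 tests, and 3 had an unadjusted p under 0.05. One of these was *Dmpk*, which was called against the mean of the other groups as given above. *Prkd2*, the gene of protein kinase D2, was at 30.9, 36.8 and 36.0 CPM in controls and 12.99, 17.7 and 32.7 in *Apoe*-/- mice, with -0.71 (SE 0.26, adjusted p 0.714). Its *Apoe*-/- mouse 4 lay within the control range and the others lay below it. *Calm3*, a calmodulin gene and the most abundant of the list, had 292, 291 and 252 CPM in controls and 322, 256 and 187 in *Apoe*-/- mice, which overlapped. *Ppp1r13l*, an inhibitor of p53 family proteins that was named after its values were seen, had 0.112, 0.541 and 0.737 CPM in controls and 0.978, 1.06 and 0.917 in *Apoe*-/- mice, but 0.999, 0.657 and 1.15 in hypertension and 0.828, 0.847 and 0.869 after MI, so that the *Apoe*-/- libraries lay within the range of hypertension.

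Against controls the 8 transcription regulators all had estimates above 0 (median 0.20 on the log2 scale), 2 at an unadjusted p under 0.05 (*Six5* and *Hif3a*) and 0 called by any of the 3 tests. DESeq2 and the likelihood-ratio test called *Six5* against the mean of the other groups. *Hif3a*, of the hypoxia-inducible factor family, was at 0.448, 0.271 and 0.310 CPM in controls, 0.227, 0.482 and 0.851 in hypertension, 1.27, 0.529 and 0.405 after MI and 1.42, 0.940 and 0.713 in *Apoe*-/- mice. The *Apoe*-/- libraries were above the controls and overlapped those of hypertension and MI, with 1.58 (SE 0.56, adjusted p 0.681) against controls. *Trim28*, the corepressor that zinc finger repressors recruit, was at 91.0, 87.5 and 93.1 CPM in controls and 106, 95.8 and 88.2 in *Apoe*-/- mice, with 0.10 (SE 0.14, adjusted p 0.954). Its groups overlapped. It ends 4.08 kb from *Ube2m*, which fell, and *Chmp2a* lies between them. *Chmp2a*, named after its values were seen, had -0.04 (SE 0.21, adjusted p 0.986) against controls.

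RNA processing genes numbered 7 (5 higher, 2 lower, median log2 fold change 0.12), with 0 called against controls by any of the 3 tests and 1 at an unadjusted p under 0.05, *Sympk*, a scaffold of mRNA 3′ end cleavage, at 6.39, 7.04 and 4.69 CPM in controls and 10.7, 7.46 and 8.86 in *Apoe*-/- mice and a log2 fold change of 0.58 (SE 0.22, adjusted p 0.738). *Nop53*, which acts in ribosome assembly, had 224, 209.6 and 226 CPM in controls and 152, 224 and 219.8 in *Apoe*-/- mice. The 3 DNA repair genes (median log2 fold change -0.11) had 0 calls against controls by any of the 3 tests and 0 genes at an unadjusted p under 0.05. *Lig1*, the replicative DNA ligase, overlapped, at 221, 198 and 204 CPM in controls and 213, 224 and 191 in *Apoe*-/- mice, and the nucleotide excision repair genes *Ercc1* and *Ercc2* had -0.24 (SE 0.21, adjusted p 0.911) and -0.11 (SE 0.30, adjusted p 0.970). Those groups overlapped.

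Genes in no list included *Mill2*, an MHC class I-like gene, and *Ccdc61*, a centriole gene, which lie 25.5 kb apart. *Mill2* was at 0.617, 0.217 and 0.388 CPM in controls, 0.272, 0.307 and 0.200 in hypertension, 0.386, 0.688 and 0.521 after MI and 1.11, 0.940 and 1.02 in *Apoe*-/- mice, above all others, with 1.33 (SE 0.41, adjusted p 0.536) against controls. Of its 132 counts 61 were in the *Apoe*-/- libraries and 71 in the other 9, so its difference, in the group through which it passed the count limit, is given as a description. *Ccdc61* was at 45.2, 56.6 and 56.7 CPM in controls, 54.9, 61.1 and 72.5 in hypertension, 27.9, 61.6 and 52.5 after MI and 37.0, 23.4 and 22.9 in *Apoe*-/- mice, with -0.93 (SE 0.27, adjusted p 0.436). Here MI mouse 2 reached into the *Apoe*-/- range. DESeq2 and the likelihood-ratio test called *Ccdc61* against the mean of the other groups.

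The genes nearest to *Apoe* on the centromeric side were *Clasrp*, a splicing regulator, *Zfp296*, a zinc finger gene, and *Gemin7*, a subunit of the SMN complex, at 0.0916, 0.115 and 0.119 Mb. *Clasrp* was at 34.0, 38.2 and 49.4 CPM in controls and 30.3, 30.8 and 39.2 in *Apoe*-/- mice, with -0.28 (SE 0.17, adjusted p 0.868). *Zfp296* had -0.32 (SE 0.26, adjusted p 0.899) and *Gemin7* 0.16 (SE 0.13, adjusted p 0.909). Against controls these nearest genes gave 0 calls by any of the 3 tests and 0 with an unadjusted p under 0.05, whereas *Gm16174* and *Pvr*, among the 3 nearest on the other side, are those given above.

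At the far edges, *Zik1*, 9.20 Mb away, had 1.51, 0.866 and 1.82 CPM in controls and 1.29, 1.64 and 2.09 in *Apoe*-/- mice, and *Zfp606*, 7.20 Mb away, 9.70, 11.2 and 11.3 and 18.2, 9.22 and 8.25. The nearest genes outside the window that met the count limit were *Clcn4* at 12.4 Mb toward the centromere and *Zfp428* at 4.81 Mb toward the telomere, just past *Plaur* at 4.76 Mb. The 59 genes not covered by the rule for named genes had log2 fold changes from -0.92 to 1.03 against controls and adjusted p of at least 0.564. By mean level the 96 genes ran from 0.532 to 1409 CPM with a median of 10.3.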

How the data were processed

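RNA of flow-sorted cells (TER-119- CD41- CD45- CD31hi SCA-1+) from 12 mice was sequenced after polyA selection with a directional kit. The authors aligned the reads to GRCm38.p6 with STAR 2.7.3a, and the deposited values are raw counts per gene; the strand column taken is not given in the sources used here. Positions came from GENCODE M21, which matched 55240 of 55421 genes. The paper and the labels differ in the day after MI; the label is given.

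Counts were tested with edgeR 4.0.16 in R 4.3.3 (filterByExpr, TMM, quasi-likelihood, 1 coefficient per group, 8 residual degrees of freedom, common dispersion 0.0634), with Benjamini-Hochberg adjustment over 15999 genes. Total counts per library were 17007088 to 25136936, and 3 counts corresponded to 0.116 to 0.176 CPM, which covers counting error only. The steps were tested on simulated data. Against controls, they called 31 genes changed by 1 on the log2 scale, 83 changed by 2 and 8 unchanged ones. Against the mean of the other groups these numbers were 60, 89 and 17. The unchanged genes called were false calls, and against controls most genes changed by 1 were missed.

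The members and lists were chosen with earlier results of these data known. Named genes were the called ones, the 12 with the smallest p against controls, the 3 nearest to *Apoe* on each side, the 3 most abundant, in each role list the 2 with the smallest p and the most abundant, and those at the limits of the choice. Copies were transcripts aligned over at least 200 bases and 50% of either transcript at 90% identity, which 12 members had. RefSeq promoters were found for 80 members. The values of 1 member are counted in the totals and not reported here.

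Alternatives were edgeR's likelihood-ratio test, which the study used, DESeq2 1.42.0, RLE size factors, an adjusted p of 0.1, a blocking term for replicate number, fits of the compared groups alone, no filter, a stricter one of 10 counts in all libraries, and each library left out.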

Additional observations from a re-analysis of the deposited data

Results flagged for a closer look

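In 3 cases the effect of *Apoe*-/- differed from the effect of another disease against the same controls, by edgeR's quasi-likelihood test of the difference itself. For *Ube2m* the log2 difference was -1.17 between *Apoe*-/- mice and hypertension (adjusted p 0.0118) and -1.14 between *Apoe*-/- mice and MI (adjusted p 0.0124), with 3 of 3 *Apoe*-/- libraries below every library of the other group. For *Gm16174* the log2 difference between *Apoe*-/- mice and MI was -2.80 (adjusted p 0.0410), again with 3 of 3 libraries below. With 1 mouse left out at a time, the *Ube2m* difference from hypertension was called in 2 of 6 fits and that from MI in 4 of 6, and the *Gm16174* difference in 0 of 6.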

How the results depend on the processing

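The number of the 96 genes called moved with the test. Against controls it was 1, and 2 at an adjusted p of 0.1, 4 with the likelihood-ratio test, 5 with DESeq2, 9 with no filter, 0 with the replicate block, 0 with only the groups compared, and 0 to 2 with 1 library left out. Against hypertension it was 1, and 6 with the likelihood-ratio test, 3 with DESeq2, 4 with no filter, 0 with the block, 0 with only the groups compared, and 0 to 2 with 1 library left out. Against MI it was 2, and 7 at an adjusted p of 0.1, 9 with the likelihood-ratio test, 11 with DESeq2, 12 with no filter, 1 with at least 10 counts in every library, 1 with the block, 0 with only the groups compared, and 0 to 5 with 1 library left out. Against the mean of the other groups it was 6, and 9 at an adjusted p of 0.1 (5 higher and 4 lower), 4 with at least 10 counts in every library, 14 with the likelihood-ratio test, 14 with DESeq2, 16 with no filter, 3 with the block, and 1 to 6 with 1 library left out. Hypertension and MI against controls gave 0 under each of these settings. Over the 37 named genes, 474 alternative values included 436 with the same sign on the same side of the threshold, 6 that lost the call, all for *Ube2m*, 16 that gained one and 16 that changed sign. The latter came from 10 genes, with estimates up to 0.26 in size and no call in any of those settings. With 1 library left out, the log2 fold change ranged from -0.28 to 0.16 for *Plaur*, -0.068 to 0.16 for *Napa*, -0.043 to 0.072 for *Lig1*, -0.32 to 0.052 for *Calm3* and -0.40 to 0.097 for *Ercc2*. In the same settings it ranged from -0.24 to 0.023 for *Nop53*, -0.014 to 0.50 for *Pglyrp1*, -0.12 to 0.35 for *Zfp110*, -0.29 to 0.35 for *Zfp606* and -0.0038 to 0.50 for *Zik1*, and with the block it was 0.018 for *Plaur*. The replicate numbers gave no clear sign of pairing, though deviations from means of 3 libraries cannot exclude it. Deviations of same-numbered libraries correlated between -0.282 and 0.296, with 5 of 18 pairs over 0.1. Those of differently numbered libraries correlated between -0.299 and 0.391, and 4 of 12 libraries correlated best with their own number. Few counts limited *Zfp114* and *Gm16174*, where 1 or 2 reads change a library's value, and the cause of the other shifts was not tested.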
